A study of Mus musculus with 419 samples.

Results

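The uterus of energy-deficient CBA/CaJ female mice was compared with that of energy-sufficient females in 12 poly(A) RNA libraries out of 419 in a series of 19 tissues, chosen by their titles as all libraries of the uterus. The series models, in mice, the syndrome of athletes known as relative energy deficiency in sport (REDs). Treatments are called Control and Deficient, as in the labels. Each treatment held 6 libraries, 3 from tissue collected at zeitgeber time 5 (ZT05, 5 h after lights on) and 3 at ZT17 (17 h after lights on). Animal numbers in the labels make each library 1 mouse, so the replicate spread is between animals. Ages, the way the deficit was imposed and the stage of the oestrous cycle were not given in the sources used here, and the part of the cycle in the results was not tested. Library totals ran from 13938546 to 26939465 counts, and mitochondrially encoded genes took 1.98% to 2.72% of them. Of 55487 genes in the table, 17734 passed edgeR's filter on low counts and were tested. Levels are given as CPM, the read count scaled to library size after TMM scaling, and a gene is said to have risen or fallen when its adjusted p was under 0.05.

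The uterus is a layered organ. A luminal epithelium and the glands that bud from it rest on an endometrial stroma, which is wrapped in the smooth muscle of the myometrium. In cycling females, oestradiol acting through oestrogen receptor alpha makes the epithelium grow and secrete mucins, lactoferrin and complement, draws leukocytes and fluid into the tissue, and primes the muscle for contraction. Progesterone opposes much of this, partly through a Hedgehog signal that the epithelium sends to the stroma.

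All 12 markers set to define the organ passed the filter, and their summed level was 3692 to 7348 CPM in Control and 4970 to 6619 CPM in Deficient uteri. Markers of ovary summed to at most 57.1 CPM in any uterus library. The oviductal glycoprotein gene Ovgp1 reached 3.57 to 88.3 CPM. Keratins and other markers of stratified squamous epithelium, which lines the cervix and vagina, were uneven: their sum was 619 CPM in Control ZT17 replicate 1 and 201 CPM in Deficient ZT17 replicate 1, against at most 145 CPM in the other 10. The squamous list passed the test with 1 gene up and 2 down of 12, and 2 up and 0 down without the pair. Of the 12 libraries of the same females labelled Ovary, 8 had no more than 2.10 CPM of the steroidogenic gene Cyp11a1, and in those 8 Ovgp1 lay between 5560 and 16560 CPM. The other 4 held at least 100 CPM of Cyp11a1, and their Ovgp1 was high too, at 1245 to 17150 CPM. All 12 are called libraries labelled Ovary below.

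Control and Deficient uteri differed in 45.0% of the genes tested. Deficient uteri had lower levels of secretory, interferon-induced, antigen-presenting and endoplasmic reticulum genes, and higher levels of Hedgehog pathway and endothelial genes. Among 8 gland genes tested, 5 fell and 2 rose, the risers being Foxa2 and Cxcl15. Of the genes tested, 3766 rose (21.2%) and 4221 fell (23.8%). Among those that changed, the median size was 0.91 on the log2 scale. The change exceeded 2-fold in 1858 genes that rose and 1704 that fell, and 8-fold in 158 and 288. In 1622 genes (9.15%) every Deficient library lay above every Control library, and in 1861 (10.5%) every one lay below. These shares are the background for all counts of the uterus response over both times that follow.

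**Figure D1:**
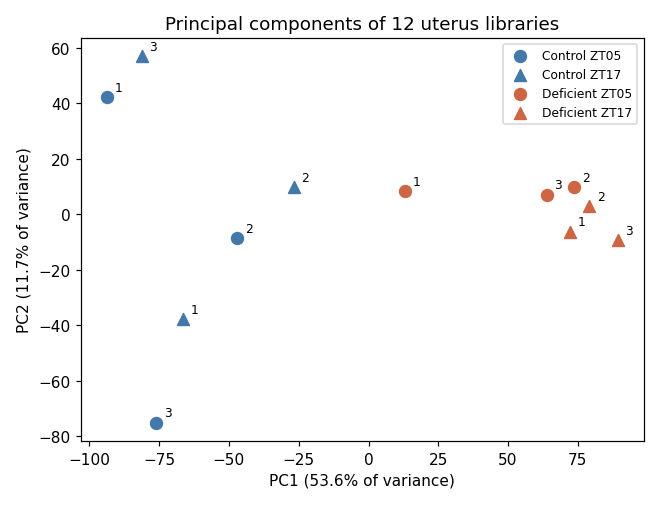
Principal component scores of the 12 uterus libraries (log2 CPM, all genes tested), with the share of variance on each axis, colour for treatment and symbol for collection time. All 6 Control libraries lie at or below -26.81 on the first axis and all 6 Deficient libraries at or above 13.24.

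The first principal component held 53.6% of the variance and separated the treatments, as the plot of the libraries shows. Control scores ran from -93.82 to -26.81 and Deficient scores from 13.24 to 89.33, so the arms did not overlap. The mouse nearest to the other arm was Deficient ZT05 replicate 1, which was the Deficient library closest to Control in 4699 of the 7987 changed genes (58.8%). On the Control side it was ZT17 replicate 2, in 2871 genes (35.9%). Without this pair 3881 genes rose and 4155 fell. Control uteri varied more among themselves: the median standard deviation of log2 CPM was 0.408 in Control and 0.260 in Deficient uteri, and 75.3% of genes were more variable in Control.

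The response also ran with transcript length, a property of the gene that the design does not set. Among protein-coding genes, the 338 with under 1 kb of merged exons had a median log2 fold change of -0.63, and the 2613 with over 8 kb had a median of 0.30. Of the shortest, 4.14% rose and 46.7% fell, and of the longest, 39.9% rose and 10.9% fell. In each library, the median deviation of long minus short genes was -1.0 to -0.13 on the log2 scale in Control and 0.17 to 0.54 in Deficient uteri. The arms did not overlap. RNA quality values were not given in the sources used here, and the part of length or RNA quality in the results was not tested. When a smooth length trend was taken out of each library, 3313 genes rose and 4366 fell, and 6700 of the 7987 (83.9%) were called in the same direction. Gene groups are given below with their counts after this step where a count of members that rose or fell moved by more than 1 gene or where the balance of rises and falls turned.

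The next list holds sex steroid receptors, their partners and some other hormone receptors. Neither Esr1, the main receptor gene for oestradiol, nor the progesterone receptor gene Pgr passed the test. Several other members rose, and those named below are Gper1, the leptin receptor gene Lepr and the mineralocorticoid receptor gene Nr3c2. Of 19 members tested, 9 rose and 1 fell (the prolactin receptor gene Prlr, a call lost when any of 9 single libraries was left out), with a median log2 fold change of 0.56, and with the length trend removed 8 rose and 3 fell. These are long transcripts, with a median of 8546 bases of merged exons against 3884 over all genes tested.

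Esr1, which encodes oestrogen receptor alpha, lay at 367 to 692 CPM (median 480.0) in Control and 427 to 569 CPM (median 519) in Deficient uteri (log2 fold change 0.05 ± 0.16 SE, adjusted p = 0.832). The arms overlapped, and the value moved to -0.36 (adjusted p = 0.0463) with the length trend removed. Pgr, the progesterone receptor gene and itself an oestrogen target, ranged over 69.4 to 437 CPM (median 187) in Control and only 269 to 402 CPM (median 339) in Deficient uteri, a difference that did not pass the test (log2 fold change 0.68 ± 0.30 SE, adjusted p = 0.0823). It did without Control ZT17 replicate 3, at 0.91 (adjusted p = 0.0267 in edgeR). Over all 12 libraries it also passed by DESeq2, at 0.69 (adjusted p = 0.04975), and in edgeR without the filter on low counts, at 0.68 (adjusted p = 0.0457). Gper1, for the membrane oestrogen receptor, rose from 2.09 to 5.83 CPM (median 4.0) to 8.11 to 19.6 CPM (median 13.5) with no overlap (log2 fold change 1.71 ± 0.29 SE, adjusted p = 0.000845). Lepr, the receptor through which the fat hormone leptin signals energy stores, was at 42.9 to 67.0 CPM (median 49.5) in Control and 110.1 to 254 CPM (median 145) in Deficient uteri, and its rise had a log2 fold change of 1.51 ± 0.15 (adjusted p = 0.000188). All 6 Deficient libraries lay above all 6 Control libraries for this gene. The mineralocorticoid receptor gene Nr3c2 rose likewise, from 3.32 to 5.99 CPM (median 4.25) to 9.50 to 16.3 CPM (median 14.6) (log2 fold change 1.68 ± 0.20 SE, adjusted p = 0.000256).

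Genes that oestradiol is known to induce in uterine epithelium fell together, and by large factors. Of 22 tested members of the list, 19 fell and 0 rose, with a median log2 fold change of -3.94 against -0.02 over all genes tested. In 16 of the 22 the arms did not overlap. Their summed level was 7775 to 55350 CPM (median 33050) in Control and 782 to 4896 CPM (median 1481) in Deficient uteri. The lowest Control sum was that of ZT17 replicate 2 and the highest Deficient sum that of ZT05 replicate 1, the same libraries that lay nearest to each other on the first principal component. The 3 members that did not pass the test were Slpi, Greb1 and Ckb. In bulk tissue, fewer epithelial cells and less RNA per epithelial cell cannot be told apart.

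Lactoferrin (Ltf), an iron-binding antimicrobial protein of uterine fluid, was at 2320 to 14750 CPM (median 6817) in Control and 23.2 to 1338 CPM (median 139) in Deficient uteri. Every Deficient mouse lay below every Control mouse (log2 fold change -4.93 ± 0.79 SE, adjusted p = 0.000638). Lcn2, whose product binds bacterial siderophores, went from 1002 to 8702 CPM (median 4615) to 18.3 to 319.6 CPM (median 42.2) (log2 fold change -5.87 ± 0.81 SE, adjusted p = 0.000367), again with no overlap. Neutrophils also make both proteins: summed neutrophil markers were 22.9 to 209 CPM in Control and 5.19 to 17 CPM in Deficient uteri, and their part in these 2 results was not tested. Complement component C3 fell from 1498 to 18130 CPM (median 8853) to 194 to 1283 CPM (median 567) (log2 fold change -3.96 ± 0.52 SE, adjusted p = 0.000313), and the lowest Control value came from ZT17 replicate 2. Clca1, a secreted regulator of chloride channels and mucus, dropped from 547 to 12620 CPM (median 3704) to 36.7 to 473 CPM (median 73.0) (log2 fold change -5.24 ± 0.69 SE, adjusted p = 0.000315). The cell-surface mucin gene Muc1 was at 193 to 827 CPM (median 449) in Control and 23.4 to 173 CPM (median 47.0) in Deficient uteri (log2 fold change -2.97 ± 0.46 SE, adjusted p = 0.000536). The water channel gene Aqp5 fell from 14.5 to 102 CPM (median 30.5) to 1.05 to 11.1 CPM (median 4.79) (log2 fold change -3.17 ± 0.49 SE, adjusted p = 0.000564). None of these arms overlapped.

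The small proline-rich proteins of the Sprr2 family, which cross-link into the envelope of epithelial cells, took 4 of the largest falls in the list. Sprr2f went from 341 to 4836 CPM (median 2052) to 3.96 to 247 CPM (median 12.6) (log2 fold change -6.01 ± 1.02 SE, adjusted p = 0.000861). Sprr2a3 went from 4.12 to 101 CPM (median 76.4) to 0.0520 to 1.85 CPM (median 0.0919) (log2 fold change -7.49 ± 1.06 SE, adjusted p = 0.000393), and Sprr2b from 1.54 to 87.8 CPM (median 4.70) to 0 to 1.30 CPM (median 0.0843) (log2 fold change -7.35 ± 1.37 SE, adjusted p = 0.00144). Sprr2d was at 2.42 to 423 CPM (median 29.5) and 0 to 1.99 CPM (median 0.106) (log2 fold change -8.15 ± 1.47 SE, adjusted p = 0.00121). Its highest Control value came from ZT17 replicate 1, the library richest in squamous markers, and without that library its log2 fold change was -5.64. Without that library and its Deficient counterpart, Sprr2f, Sprr2a3, Sprr2b and Sprr2d were at -5.97, -8.02, -5.16 and -6.22. These copies are nearly identical in sequence, so the split of reads among them is uncertain.

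**Figure D2:**
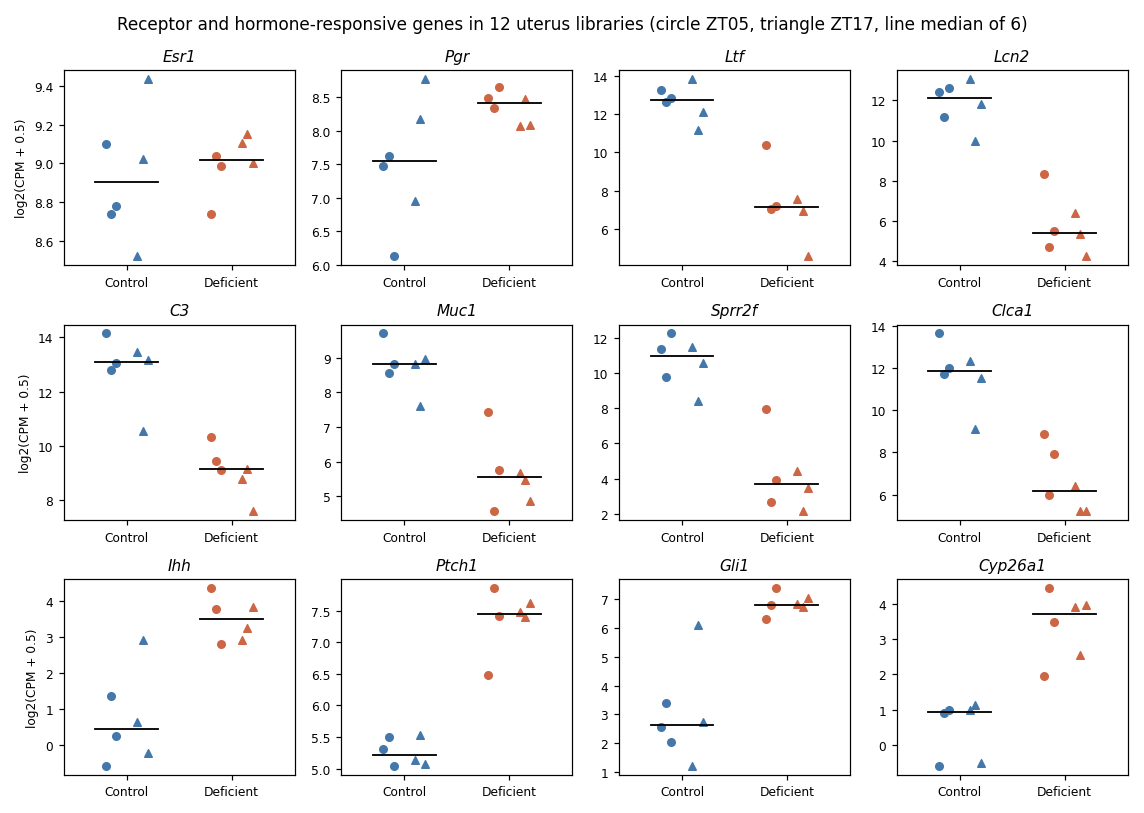
Levels, as log2(CPM + 0.5), of steroid receptor, oestrogen-induced and Hedgehog pathway genes in each of the 12 uterus libraries, with colour for treatment, symbol for collection time and a bar at each arm's median. Esr1 overlaps between arms, while Ltf, Lcn2 and C3 lie lower and Ptch1 and Gli1 higher in all Deficient libraries.

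Transcripts of several Hedgehog pathway genes were higher in Deficient uteri. In the uterus, epithelial Indian hedgehog (Ihh) binds the receptor Patched on stromal cells, and the genes of the transcription factor Gli1 and of the receptor Ptch1 are themselves induced by the signal. Ihh was at 0.163 to 7.04 CPM (median 0.871) in Control and 6.36 to 19.7 CPM (median 11) in Deficient uteri (log2 fold change 2.77 ± 0.68 SE, adjusted p = 0.00622). The arms overlapped only through Control ZT17 replicate 2, the mouse with the highest Control value, and without it the log2 fold change was 3.76. Gli1 rose from 1.83 to 68.4 CPM (median 5.77) to 79.1 to 164 CPM (median 110.2) with no overlap (log2 fold change 3.19 ± 0.68 SE, adjusted p = 0.00312). That same Control library held its highest Control value too, and without it the value was 4.54. Ptch1, named after its values were seen, lay at 32.5 to 46.0 CPM (median 36.8) and 88.5 to 231 CPM (median 174) (log2 fold change 2.17 ± 0.21 SE, adjusted p = 0.000171), and its arms were apart. Smo, which encodes the transducer of the signal and was also named after its values were seen, lay at 95.0 to 163 CPM (median 121) and 118 to 168 CPM (median 136) and did not pass the test (log2 fold change 0.13 ± 0.14 SE, adjusted p = 0.463).

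The Hedgehog genes belong to a list of Wnt, Hedgehog and Notch genes of which 16 of 30 rose and 1 fell, with a median log2 fold change of 0.55. With the length trend removed 14 rose and 1 fell, and 2 fell without Control ZT17 replicate 3 or without Deficient ZT05 replicate 1. Wnt11 rose from 0.153 to 1.77 CPM (median 1.38) to 2.83 to 24.9 CPM (median 8.35) (log2 fold change 3.26 ± 0.60 SE, adjusted p = 0.00135). The member that fell was Wnt7b, an epithelial Wnt ligand, at 29.8 to 94.5 CPM (median 46.2) in Control and 2.86 to 25.8 CPM (median 8.58) in Deficient uteri (log2 fold change -2.47 ± 0.39 SE, adjusted p = 0.000637). Wif1, which encodes a secreted inhibitor of Wnt ligands, was among the largest rises in the organ: 0 to 2.64 CPM (median 0.136) in Control and 13.5 to 68.3 CPM (median 51.2) in Deficient uteri (log2 fold change 6.87 ± 0.75 SE, adjusted p = 0.000224).

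Genes known to respond to progesterone were split, with 11 of 24 up, 3 down and a median log2 fold change of 0.41. Ihh and Gli1 are among those that rose. Cyp26a1, which degrades retinoic acid, rose from 0.163 to 1.70 CPM (median 1.43) to 3.34 to 21.1 CPM (median 12.6) (log2 fold change 3.42 ± 0.62 SE, adjusted p = 0.00123). The members that fell were Prap1, an acidic secreted protein of epithelium that oestrogen also regulates, the serum and glucocorticoid regulated kinase gene Sgk1 and the EGF receptor feedback inhibitor Errfi1. Prap1 was at 114 to 5768 CPM (median 2906) and 5.08 to 706 CPM (median 14.9) (log2 fold change -5.34 ± 0.90 SE, adjusted p = 0.000863), with Control ZT17 replicates 2 and 3 inside the Deficient range. Sgk1 fell by 0.91 on the log2 scale (SE 0.143, adjusted p = 0.000609) and Errfi1 by 0.70 (SE 0.164, adjusted p = 0.00486).

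Of 14 enzymes that make or inactivate steroids inside the tissue, 6 fell, 1 rose and 7 did not pass the test. Hsd17b2, which oxidises oestradiol to the weaker oestrone, was at 1.21 to 39.9 CPM (median 18.2) in Control and 0 to 0.602 CPM (median 0.121) in Deficient uteri (log2 fold change -7.48 ± 0.93 SE, adjusted p = 0.000276). Akr1c18, which inactivates progesterone, went from 0.330 to 4.11 CPM (median 1.96) to 0 to 0.324 CPM (median 0.125) (log2 fold change -4.33 ± 0.77 SE, adjusted p = 0.00112). A related reductase gene, Akr1c14, fell from 199 to 534 CPM (median 313) to 101 to 190.3 CPM (median 157) (log2 fold change -1.21 ± 0.25 SE, adjusted p = 0.00257). The arms of these 3 genes were apart. The enzymes that set local glucocorticoid exposure moved in opposite directions. Hsd11b2, which inactivates glucocorticoid, fell from 19.4 to 375 CPM (median 138) to 24.2 to 49.8 CPM (median 27.1) (log2 fold change -2.29 ± 0.54 SE, adjusted p = 0.00502). Hsd11b1, which regenerates it, was at 7.08 to 16.4 CPM (median 11.4) and 14.2 to 27.5 CPM (median 20.2) (log2 fold change 0.81 ± 0.25 SE, adjusted p = 0.0211), a rise that was 0.66 (adjusted p = 0.0614) without Deficient ZT05 replicate 2.

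In the gland list 2 of 8 members rose and 5 fell, the risers being the gland transcription factor Foxa2 and the gland chemokine Cxcl15. Foxa2 went from 3.01 to 5.2 CPM (median 3.90) to 6.63 to 13.5 CPM (median 11) (log2 fold change 1.4 ± 0.20 SE, adjusted p = 0.000417). Cxcl15 was at 0 to 3.08 CPM (median 0.0406) in Control and 10.8 to 56.1 CPM (median 39.0) in Deficient uteri (log2 fold change 6.99 ± 0.93 SE, adjusted p = 0.000327), and ZT17 replicate 2 was the only Control library above 1 CPM. Lif, the cytokine that glands release to make the uterus receptive to an embryo, fell from 13.7 to 43.7 CPM (median 27.4) to 1.98 to 5.79 CPM (median 3.23) (log2 fold change -2.96 ± 0.32 SE, adjusted p = 0.000225). Of 20 luminal and general epithelial genes, 11 fell and 4 rose. The adhesion molecule gene Epcam, present in all epithelial cells, fell from 376 to 812 CPM (median 672) to 183 to 335 CPM (median 219) (log2 fold change -1.49 ± 0.19 SE, adjusted p = 0.000297). Krt7 went from 193 to 913 CPM (median 483) to 63.4 to 141 CPM (median 73.0) (log2 fold change -2.65 ± 0.38 SE, adjusted p = 0.000432), and the tight junction gene Cldn7 from 176 to 326 CPM (median 292) to 42.0 to 127 CPM (median 55.7) (log2 fold change -2.06 ± 0.23 SE, adjusted p = 0.000254). Msx1, a homeobox gene of the epithelium before implantation, was among the 4 that rose, from 5.61 to 85.4 CPM (median 46.0) to 159.6 to 221 CPM (median 186) (log2 fold change 2.07 ± 0.44 SE, adjusted p = 0.00288).

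Stromal genes rose in 7 and fell in 3 of 16, with a median log2 fold change of 0.26. The surface marker gene Thy1 rose from 39.0 to 88.3 CPM (median 46.6) to 90.9 to 160.5 CPM (median 128) (log2 fold change 1.19 ± 0.18 SE, adjusted p = 0.000519), and the matrix proteoglycan gene Lum fell from 514 to 1217 CPM (median 715) to 347 to 486 CPM (median 410.0) (log2 fold change -0.94 ± 0.20 SE, adjusted p = 0.00298). Dio2, which activates thyroid hormone, dropped from 200.1 to 541 CPM (median 434) to 96.0 to 298 CPM (median 149) (log2 fold change -1.20 ± 0.29 SE, adjusted p = 0.00632), with overlap.

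In the muscle layer, contraction genes and contractile proteins went both ways. Of 16 contraction genes 5 rose and 4 fell, or 4 and 5 with the length trend removed. The oxytocin receptor gene Oxtr fell from 48.0 to 533 CPM (median 211) to 27.3 to 72.4 CPM (median 37.5) (log2 fold change -2.27 ± 0.47 SE, adjusted p = 0.00258). Gja1, whose gap junction channels couple muscle cells in labour, fell from 163 to 395 CPM (median 222) to 72.6 to 201 CPM (median 89.7) (log2 fold change -1.24 ± 0.24 SE, adjusted p = 0.00182). Both are known oestrogen-induced genes of the myometrium, and for each the arms overlapped. By contrast, the prostaglandin F receptor gene Ptgfr was at 2.20 to 9.46 CPM (median 5.76) in Control and 18 to 31.3 CPM (median 23.6) in Deficient uteri (log2 fold change 2.0 ± 0.27 SE, adjusted p = 0.000343), and the adrenergic receptor gene Adra1a rose from 0.488 to 1.43 CPM (median 0.962) to 2.64 to 7.91 CPM (median 3.95) (log2 fold change 2.31 ± 0.35 SE, adjusted p = 0.000501), both without overlap. Among smooth muscle markers 2 of 14 rose and 5 fell. The desmin gene Des fell from 579 to 1770 CPM (median 725) to 332 to 554 CPM (median 431) (log2 fold change -1.15 ± 0.27 SE, adjusted p = 0.00528), whereas Myh11, the smooth muscle myosin heavy chain, was at 1098 to 2284 CPM (median 1386) and 1500 to 2257 CPM (median 1974) (log2 fold change 0.35 ± 0.18 SE, adjusted p = 0.127). Without Control ZT17 replicate 3 the counts were 4 up and 3 down and Myh11 rose by 0.51 (adjusted p = 0.0215), and without Deficient ZT17 replicate 3 also 3 fell.

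Genes of fluid transport and of luminal defence fell more often than they rose. Of 24 ion and water transport genes, 9 fell and 4 rose, the latter 7 without Control ZT17 replicate 1 or without the pair high in squamous markers. Aqp4, a water channel gene, went from 5.77 to 272 CPM (median 60.8) to 1.41 to 8.99 CPM (median 1.84) (log2 fold change -4.74 ± 0.75 SE, adjusted p = 0.000610). The calcium-activated chloride channel gene Ano1 rose from 20.2 to 57.4 CPM (median 33.6) to 88.9 to 116 CPM (median 99.5) with no overlap (log2 fold change 1.51 ± 0.25 SE, adjusted p = 0.000708). Among mucins and antimicrobial proteins 10 of 17 fell and 2 rose, with a median log2 fold change of -2.97. Dmbt1, a scavenger glycoprotein of mucosal surfaces, was at 1.12 to 49.1 CPM (median 13.1) in Control and 0 to 0.417 CPM (median 0) in Deficient uteri (log2 fold change -9.21 ± 1.68 SE, adjusted p = 0.00194). The 2 that rose were Bpifb5 and Bpifb1, of a family of secreted lipid-binding defence proteins. Bpifb5 was at 0 to 1.37 CPM (median 0.161) in Control and 12.9 to 87.5 CPM (median 66.5) in Deficient uteri (log2 fold change 7.74 ± 0.71 SE, adjusted p = 0.000171).

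Prostaglandin genes rose in 6 and fell in 4 of 20. The synthase gene Ptges2 fell from 37.6 to 54.2 CPM (median 42.0) to 13.6 to 31.1 CPM (median 17.7) (log2 fold change -1.25 ± 0.17 SE, adjusted p = 0.000373), and the receptor gene Ptger2 rose from 1.12 to 6.99 CPM (median 4.75) to 5.42 to 25.1 CPM (median 14.3) (log2 fold change 1.76 ± 0.40 SE, adjusted p = 0.00451). Retinoid genes fell in 6 and rose in 2 of 17, and 1 rose without Control ZT05 replicate 3, Deficient ZT05 replicate 1, Deficient ZT17 replicate 1 or Deficient ZT17 replicate 2. The retinoic acid synthesising enzyme gene Aldh1a2 dropped from 64.4 to 370.3 CPM (median 205) to 30.7 to 79.8 CPM (median 47.2) (log2 fold change -2.08 ± 0.44 SE, adjusted p = 0.00273), with overlap.

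The 10 largest rises, of genes whose mean level reached 8 CPM, were Bpifb5, Slc5a11, Cxcl15, Wif1, Grin2b, Cdh16, Sult1d1, Topaz1, Coch and Cspg5. Slc5a11, an inositol and sugar transporter gene, was at 0 to 0.204 CPM (median 0.0865) in Control and 0.417 to 41.7 CPM (median 16.3) in Deficient uteri (log2 fold change 7.36 ± 0.87 SE, adjusted p = 0.000254). Grin2b, for an NMDA receptor subunit better known from neurons, went from 0.0622 to 0.715 CPM (median 0.224) to 2.22 to 40.0 CPM (median 37.1) (log2 fold change 6.55 ± 0.71 SE, adjusted p = 0.000224). Cdh16, an epithelial cadherin gene, rose from 0.311 to 3.62 CPM (median 1.62) to 6.21 to 63.5 CPM (median 38.1) (log2 fold change 4.62 ± 0.55 SE, adjusted p = 0.000254). For all 3 the lowest Deficient library was ZT05 replicate 1. The proteoglycan gene Cspg5 rose from 1.30 to 5.55 CPM (median 2.85) to 21.9 to 71.9 CPM (median 42.7) (log2 fold change 3.96 ± 0.34 SE, adjusted p = 0.000171), and the remaining members, the sulfotransferase gene Sult1d1, Topaz1 and Coch, had log2 fold changes of 4.59, 4.49 and 4.47.

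The 10 largest falls were Krt84, Dmbt1, Aoc1, Sprr2d, Arg1, Chil1, Tmprss11d, Sprr2a3, Hsd17b2 and Sprr2b. Aoc1, which breaks down histamine and polyamines, was at 37.9 to 1189 CPM (median 433) in Control and 0.396 to 6.63 CPM (median 0.881) in Deficient uteri (log2 fold change -8.50 ± 0.92 SE, adjusted p = 0.000224). Arg1, which turns arginine into ornithine and so feeds polyamine synthesis, went from 6.10 to 1031 CPM (median 338) to 0.396 to 9.69 CPM (median 1.03) (log2 fold change -7.68 ± 1.17 SE, adjusted p = 0.000521), the arms meeting at Control ZT17 replicate 2. Tmprss11d, an epithelial serine protease gene, fell from 6.32 to 142 CPM (median 68.5) to 0 to 1.53 CPM (median 0.232) (log2 fold change -7.64 ± 0.87 SE, adjusted p = 0.000254). The hard keratin gene Krt84 had 1.48 to 165 CPM (median 8.92) in Control and at most 0.236 CPM in Deficient uteri (log2 fold change -9.82 ± 1.71 SE, adjusted p = 0.00103), and -9.84 without the pair of libraries high in squamous markers. Chil1, a chitinase-like protein gene, was at 0.824 to 355 CPM (median 10.9) and 0 to 0.417 CPM (median 0.305) (log2 fold change -7.67 ± 1.39 SE, adjusted p = 0.00125), and -5.47 without Control ZT17 replicate 1. Several of these genes were near 0 in 1 arm, where the fitted size depends on the model's prior count and sets no bound.

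Interferon genes were lower in Deficient uteri in each of 3 lists, from the ligand made by the epithelium through the sensors to the effectors. Interferon epsilon is made constitutively by uterine epithelium under hormonal control. Interferons bind cell-surface receptors, which activate transcription factors such as STAT2 and IRF9, and these bind a promoter motif called the interferon-stimulated response element. To show the motif in the genes described here, the 250 bases before the start of Ifit1, Isg15 and Oas3 are printed from RefSeq (GRCm38.p6), 5′ to 3′ on the strand of the gene. Capitals mark matches to GAAANNGAAA on either strand. The windows are chr19:34640639-34640888 on the plus strand for Ifit1, chr4:156200819-156201068 on the minus strand for Isg15 and chr5:120777660-120777909 on the minus strand for Oas3.
Ifit1: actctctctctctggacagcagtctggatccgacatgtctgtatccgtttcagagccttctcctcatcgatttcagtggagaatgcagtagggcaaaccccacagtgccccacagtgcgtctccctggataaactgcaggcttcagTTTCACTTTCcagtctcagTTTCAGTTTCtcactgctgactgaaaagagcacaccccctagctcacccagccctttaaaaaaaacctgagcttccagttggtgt
Isg15: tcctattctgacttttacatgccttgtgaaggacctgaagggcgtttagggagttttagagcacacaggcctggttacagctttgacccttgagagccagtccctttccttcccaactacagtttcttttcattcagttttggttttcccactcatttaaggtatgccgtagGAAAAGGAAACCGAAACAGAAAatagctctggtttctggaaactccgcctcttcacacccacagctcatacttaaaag
Oas3: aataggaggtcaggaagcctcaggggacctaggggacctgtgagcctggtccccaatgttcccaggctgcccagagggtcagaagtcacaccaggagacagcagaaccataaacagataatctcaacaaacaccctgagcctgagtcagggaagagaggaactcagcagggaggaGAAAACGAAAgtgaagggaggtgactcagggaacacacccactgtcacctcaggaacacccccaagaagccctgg
Ifit1 holds 2 matches, on the opposite strand, Isg15 holds 3 that overlap, and Oas3 holds 1. Counted by gene, with a match in any of its promoters of this length, the motif was present in 936 of 27025 genes (3.46%). It was present in 18 of the 33 interferon-induced effector genes with a promoter sequence. Of those 18, 15 fell, and of the 15 without the motif 12 fell. A match describes these letters only and is neither a shown binding site nor a cause.

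Of 19 interferon ligand, receptor and transcription factor genes, 13 fell and 0 rose. The ligand gene Ifne went from 1.32 to 14.2 CPM (median 11.8) to 0.416 to 1.95 CPM (median 1.24) (log2 fold change -3.03 ± 0.52 SE, adjusted p = 0.000877), the arms meeting at Control ZT17 replicate 2. Stat2, a factor that carries the receptor's signal to the nucleus, fell from 78.8 to 197 CPM (median 174) to 31.1 to 62.7 CPM (median 39.9) (log2 fold change -1.89 ± 0.25 SE, adjusted p = 0.000337), and the arms were apart. Irf7, which amplifies the interferon response, was at 106 to 696 CPM (median 373) and 12.4 to 119 CPM (median 24.6) (log2 fold change -3.57 ± 0.56 SE, adjusted p = 0.000611), and its highest Deficient value was that of ZT05 replicate 1. Usp18, which limits receptor signalling and is itself induced by it, fell from 32.2 to 150.5 CPM (median 87.2) to 11.2 to 29.0 CPM (median 14.7) (log2 fold change -2.47 ± 0.37 SE, adjusted p = 0.000462).

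Sensors of nucleic acid fell in 10 of 14 cases and rose in none. Zbp1, a sensor of Z-form nucleic acid, was at 39.4 to 243 CPM (median 149) in Control and 4.22 to 30.5 CPM (median 5.24) in Deficient uteri (log2 fold change -4.13 ± 0.56 SE, adjusted p = 0.000342). Dhx58, of the RIG-I family of RNA sensors, fell from 33.0 to 128 CPM (median 102) to 6.06 to 23.6 CPM (median 11.9) (log2 fold change -2.89 ± 0.39 SE, adjusted p = 0.000334). Tmem173, which encodes the DNA-sensing adaptor STING, fell from 114 to 372 CPM (median 232) to 39.0 to 78.4 CPM (median 41.8) (log2 fold change -2.34 ± 0.27 SE, adjusted p = 0.000254). No Deficient library reached the Control range for these 3 genes.

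Among effectors, 37 of 43 fell and 1 rose, with a median log2 fold change of -1.80. The arms did not overlap in 21 of those that were lower. The counts were the same with the length trend removed. Isg15, a ubiquitin-like modifier, was at 32.9 to 186 CPM (median 124) in Control and 3.91 to 20.1 CPM (median 7.20) in Deficient uteri (log2 fold change -3.72 ± 0.49 SE, adjusted p = 0.000315). Oas3, which makes the second messenger that activates RNase L, went from 46.3 to 214 CPM (median 147) to 4.08 to 33.5 CPM (median 6.54) (log2 fold change -3.86 ± 0.55 SE, adjusted p = 0.000406). Mx1, an antiviral GTPase gene, fell from 22.9 to 139.5 CPM (median 91.0) to 2.10 to 13.9 CPM (median 5.25) (log2 fold change -3.85 ± 0.51 SE, adjusted p = 0.000313). The arms were apart for each of the 3. Ifit1, chosen after its values were seen for the promoter printed above, was at 35.4 to 252 CPM (median 206) and 19.4 to 63.7 CPM (median 27.5) (log2 fold change -2.45 ± 0.42 SE, adjusted p = 0.000917), with overlap. Its relative Ifit1bl1 went from 4.95 to 129 CPM (median 58.3) to 0.923 to 13.5 CPM (median 1.11) (log2 fold change -4.62 ± 0.76 SE, adjusted p = 0.000755), and reads of such close copies may be split uncertainly. The exception was Ifitm1, a membrane protein gene that also serves in development, which rose from 51.2 to 191 CPM (median 120.5) to 269 to 339.8 CPM (median 297) without overlap (log2 fold change 1.4 ± 0.25 SE, adjusted p = 0.00118).

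**Figure D3:**
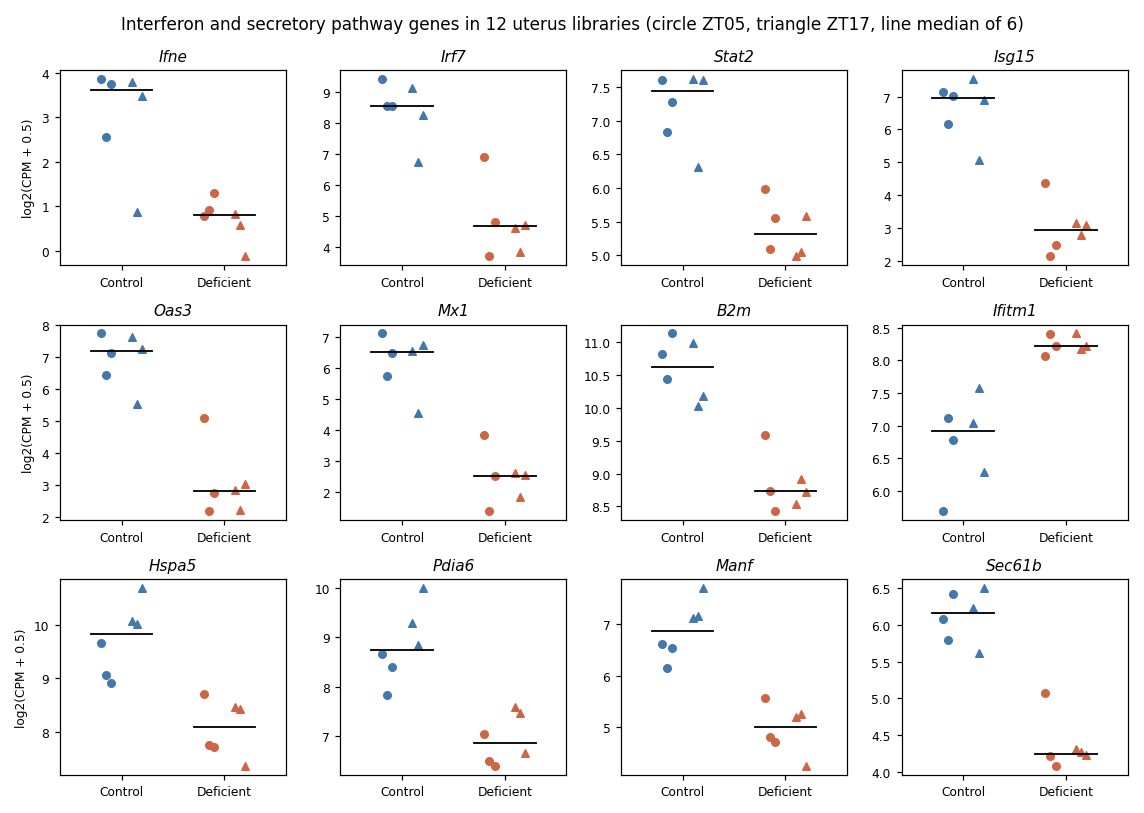
Levels, as log2(CPM + 0.5), of interferon pathway, antigen presentation and endoplasmic reticulum genes in each of the 12 uterus libraries, with colour for treatment, symbol for collection time and a bar at each arm's median. The Deficient median lies lower for each of the 12 genes shown but Ifitm1.

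Antigen presentation fell with the effectors. All 12 genes of the MHC class I list fell, with a median log2 fold change of -1.48. The heavy chain gene H2-K1 went from 866 to 1599 CPM (median 1327) to 275 to 765 CPM (median 286) (log2 fold change -1.79 ± 0.26 SE, adjusted p = 0.000460), and B2m, its invariant partner, from 1049 to 2252 CPM (median 1596) to 344 to 770.4 CPM (median 424) (log2 fold change -1.78 ± 0.25 SE, adjusted p = 0.000356). The immunoproteasome subunit gene Psmb8 fell from 119.6 to 202 CPM (median 177) to 36.2 to 96.2 CPM (median 41.2) (log2 fold change -1.76 ± 0.22 SE, adjusted p = 0.000274), and Psmb10 from 46.2 to 95.1 CPM (median 76.3) to 13.7 to 38.1 CPM (median 19.6) (log2 fold change -1.75 ± 0.21 SE, adjusted p = 0.000254). All 4 had arms that did not overlap. The H2 haplotype of CBA/CaJ differs from that of the reference strain, so levels of H2 genes may be undercounted in all 12 libraries. Of 8 MHC class II genes 7 fell, but this count was 3 without the pair of libraries high in squamous markers, and 3 or 4 when any of 8 single libraries was left out, among them Deficient ZT05 replicates 2 and 3 (3 each).

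Chaperones of the endoplasmic reticulum, the compartment where secreted proteins are folded, fell as a group. The factors XBP1 and ATF6 raise these genes when the folding load is high, through a promoter motif called the endoplasmic reticulum stress element. The 250 bases before Hspa5 and Pdia6 are shown for this motif, with capitals at the match to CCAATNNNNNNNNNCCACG (RefSeq, GRCm38.p6, strand of the gene). Their windows are chr2:34771840-34772089 and chr12:17266339-17266588, both on the plus strand.
Hspa5: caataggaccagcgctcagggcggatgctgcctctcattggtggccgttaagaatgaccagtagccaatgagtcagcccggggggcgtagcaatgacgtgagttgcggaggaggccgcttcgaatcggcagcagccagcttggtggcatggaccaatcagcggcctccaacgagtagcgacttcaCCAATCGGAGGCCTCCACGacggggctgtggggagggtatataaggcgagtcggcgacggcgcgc
Pdia6: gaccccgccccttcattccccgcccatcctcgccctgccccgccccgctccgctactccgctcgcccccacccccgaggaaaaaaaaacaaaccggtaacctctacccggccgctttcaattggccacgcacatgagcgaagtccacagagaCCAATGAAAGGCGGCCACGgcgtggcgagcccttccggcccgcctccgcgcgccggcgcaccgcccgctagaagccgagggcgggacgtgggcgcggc
Searched on both strands and counted by gene, this motif was present in 35 of 27025 genes (0.13%) and in 9 of 19 chaperone genes with a promoter sequence, of which 8 fell. Of the 10 without it 8 also fell. Searched in the same way, the oestrogen response element GGTCANNNTGACC was in 18 genes (0.0666%) and in 0 of 24 oestrogen-induced genes. The GLI site GACCACCCA was in 69 genes (0.255%) and in 0 of 20 Wnt, Hedgehog and Notch genes. For the listed genes this says only that these letters are not in this window.

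Of 23 chaperone genes, 19 fell and 0 rose, with a median log2 fold change of -1.06, and 19 fell with the length trend removed. Hspa5, which encodes the major chaperone BiP, was at 481 to 1641 CPM (median 917) in Control and 164 to 415 CPM (median 279) in Deficient uteri (log2 fold change -1.62 ± 0.26 SE, adjusted p = 0.000679). Calr, a calcium-binding chaperone of glycoproteins, fell from 612 to 2420 CPM (median 1173) to 216 to 524 CPM (median 319) (log2 fold change -1.81 ± 0.25 SE, adjusted p = 0.000367). The disulfide isomerase gene Pdia6 went from 228 to 1019 CPM (median 432) to 83.9 to 192 CPM (median 116) (log2 fold change -1.91 ± 0.25 SE, adjusted p = 0.000297). For these 3 genes every Control mouse lay above every Deficient mouse. Sdf2l1, a stress-inducible partner of BiP, fell from 14.7 to 74.3 CPM (median 31.6) to 2.95 to 13.1 CPM (median 5.32) (log2 fold change -2.24 ± 0.39 SE, adjusted p = 0.00103), and the secreted stress-induced factor gene Manf from 70.2 to 206 CPM (median 118) to 18.5 to 46.9 CPM (median 31.6) (log2 fold change -1.89 ± 0.22 SE, adjusted p = 0.000254). The translocation and export machinery fell in 24 of 36 members, with 0 up and 28 down when the length trend was removed. Sec61b, a subunit of the translocation channel, went from 48.5 to 89.5 CPM (median 70.7) to 16.5 to 33.2 CPM (median 18.6) (log2 fold change -1.76 ± 0.21 SE, adjusted p = 0.000254). The signal sequence receptor genes Ssr2 and Ssr4 and the signal peptidase gene Sec11c fell by 1.32, 1.39 and 1.30 on the log2 scale, and none of these arms overlapped.

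Complement, macrophage and neutrophil genes fell in part, while T cell, NK cell, B cell and mast cell markers mostly did not pass the test. Of 18 complement genes, 10 fell and 1 rose. Cfi, which cleaves C3b, fell from 154 to 334 CPM (median 309) to 8.43 to 102 CPM (median 14.7) (log2 fold change -3.53 ± 0.50 SE, adjusted p = 0.000382), and Cfb, of the alternative pathway, from 3.68 to 37.0 CPM (median 14.9) to 0.330 to 3.80 CPM (median 0.570) (log2 fold change -4.09 ± 0.69 SE, adjusted p = 0.000854). C1qb, made mainly by macrophages, fell from 87.1 to 148 CPM (median 101) to 20.7 to 66.0 CPM (median 33.1) (log2 fold change -1.48 ± 0.26 SE, adjusted p = 0.00107). The protease gene C1s1 was the exception (joined by another without Control ZT05 replicate 2, Control ZT17 replicate 1, Deficient ZT05 replicate 3 or the pair high in squamous markers) and rose from 164 to 370.3 CPM (median 239.5) to 239.7 to 606 CPM (median 493) (log2 fold change 0.83 ± 0.23 SE, adjusted p = 0.0127).

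Macrophage and monocyte markers fell in 12 and rose in 2 of 17, and their sum was 979 to 1615 CPM in Control and 441 to 700.1 CPM in Deficient uteri, without overlap. Adgre1, which encodes the macrophage antigen F4/80, fell from 27.4 to 60.6 CPM (median 34.8) to 7.78 to 22.0 CPM (median 14.2) (log2 fold change -1.4 ± 0.22 SE, adjusted p = 0.000590). The Fc receptor gene Fcgr1 went from 6.92 to 18.1 CPM (median 15.9) to 1.57 to 6.02 CPM (median 2.62) (log2 fold change -2.20 ± 0.35 SE, adjusted p = 0.000618), and the lipopolysaccharide co-receptor gene Cd14 from 55.3 to 322 CPM (median 149) to 31.8 to 44.2 CPM (median 38.3) (log2 fold change -2.09 ± 0.36 SE, adjusted p = 0.000938). The 2 that rose were Mertk, a receptor for the uptake of dead cells, at 17.1 to 23.7 CPM (median 18.8) in Control and 27.4 to 52.4 CPM (median 40.4) in Deficient uteri (log2 fold change 1.06 ± 0.17 SE, adjusted p = 0.000613), and Lyve1, shared with lymphatic endothelium.

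Neutrophil markers fell in 6 of 8. Retnlg went from 11.6 to 60.5 CPM (median 34.3) to 0.175 to 2.81 CPM (median 0.883) (log2 fold change -4.84 ± 0.61 SE, adjusted p = 0.000287), and the lineage marker Ly6g from 1.10 to 4.96 CPM (median 3.18) to 0 to 0.880 CPM (median 0.0295) (log2 fold change -4.22 ± 0.78 SE, adjusted p = 0.00141). The eosinophil chemokine receptor gene Ccr3 fell from 3.88 to 14.5 CPM (median 7.61) to 0 to 0.556 CPM (median 0.311) (log2 fold change -4.83 ± 0.66 SE, adjusted p = 0.000342), and its value was -7.26 without Deficient ZT05 replicate 1. Eosinophil markers fell in 3 of 5, and in 5 without that library. T and NK cell markers fell in 3 of 14 and rose in none. The falls numbered 1 without Deficient ZT05 replicate 2, without Deficient ZT17 replicate 2, without the pair high in squamous markers or with the length trend removed, and 0 with the stricter filter. With the replicate block 2 rose, and 1 rose without Control ZT05 replicate 2 or 3, Control ZT17 replicate 2 or the pair nearest the other arm. The sums of these markers overlapped, at 35.9 to 55.3 CPM in Control and 37.5 to 48.3 CPM in Deficient uteri.

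Vessel markers went the other way. Of 17 endothelial genes 11 rose and 1 fell, 8 and 1 with the length trend removed. The endothelial transcription factor gene Erg rose from 7.81 to 12.9 CPM (median 9.48) to 13.6 to 25.4 CPM (median 21.0) with no overlap (log2 fold change 1.07 ± 0.19 SE, adjusted p = 0.00123). Cdh5, the cadherin of endothelial junctions, was at 35.9 to 51.6 CPM (median 43.7) and 50.7 to 116 CPM (median 90.6) (log2 fold change 0.96 ± 0.14 SE, adjusted p = 0.000483). The exception was Plvap, a protein of fenestrae and caveolae, which fell from 27.7 to 37.1 CPM (median 33.4) to 16.3 to 24.4 CPM (median 20.5) (log2 fold change -0.70 ± 0.13 SE, adjusted p = 0.00113). Of 6 lymphatic endothelial genes 5 rose, each without overlap. Reln, a secreted glycoprotein gene, went from 7.78 to 15.7 CPM (median 11.7) to 31.6 to 291 CPM (median 65.6) (log2 fold change 2.89 ± 0.34 SE, adjusted p = 0.000254), and Prox1, which specifies lymphatic identity, from 4.17 to 7.88 CPM (median 5.72) to 9.13 to 18.2 CPM (median 15.8) (log2 fold change 1.32 ± 0.23 SE, adjusted p = 0.00100).

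Few proliferation genes passed the test against a wide Control spread. Of 39 cell cycle genes 3 fell and 0 rose, although their median log2 fold change was -0.71. The sum ran from 509 to 3191 CPM in Control and from 720 to 1411 CPM in Deficient uteri. Mki67, the standard proliferation marker, was at 18.3 to 184 CPM (median 70.8) and 60.5 to 138 CPM (median 83.1) (log2 fold change 0.06 ± 0.49 SE, adjusted p = 0.935). The count of 3 was 6 by DESeq2, 7 with the replicate block, 6 without the pair of libraries nearest the other arm, 1 without any of 6 single libraries (Control ZT05 replicate 1, Control ZT17 replicate 2, Deficient ZT05 replicates 2 and 3, Deficient ZT17 replicates 1 and 3), and 5, 6 and 8 without Control ZT05 replicate 3, Control ZT17 replicate 1 and Deficient ZT05 replicate 1. The inhibitor gene Cdkn1a fell from 38.2 to 90.3 CPM (median 76.6) to 19.0 to 46.4 CPM (median 25.4) (log2 fold change -1.38 ± 0.21 SE, adjusted p = 0.000562), and Ccnd3, a D cyclin gene, from 67.8 to 118 CPM (median 103) to 41.5 to 63.8 CPM (median 51.5) (log2 fold change -0.91 ± 0.15 SE, adjusted p = 0.000836).

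The axis of insulin-like growth factors, through which oestradiol acts on the epithelium, changed at its receptor and binding proteins. Of 15 members 8 rose and 3 fell. The ligand gene Igf1 was at 47.5 to 621 CPM (median 153) in Control and 85.2 to 166 CPM (median 115) in Deficient uteri (log2 fold change -0.73 ± 0.46 SE, adjusted p = 0.216), a difference that passed the test only when Control ZT17 replicate 1 was left out (-0.97, adjusted p = 0.0317, over the 12 such fits). The receptor gene Igf1r, named after its values were seen, rose from 50.6 to 106 CPM (median 72.8) to 107 to 276 CPM (median 233) without overlap (log2 fold change 1.48 ± 0.22 SE, adjusted p = 0.000506). Of the binding proteins, Igfbp2 fell from 4.92 to 43.6 CPM (median 18.8) to 1.39 to 6.72 CPM (median 1.81) (log2 fold change -3.07 ± 0.58 SE, adjusted p = 0.00150), and Igfbp3 rose from 21.7 to 136 CPM (median 46.7) to 70.1 to 415 CPM (median 242) (log2 fold change 1.84 ± 0.42 SE, adjusted p = 0.00421).

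Collagen and matrix genes fell in 14 and rose in 3 of 34, or 17 and 1 with the length trend removed. Without Deficient ZT05 replicate 3 or without Deficient ZT17 replicate 1, 9 fell. Col1a1 went from 633 to 2687 CPM (median 1265) to 259 to 982 CPM (median 314) (log2 fold change -1.81 ± 0.41 SE, adjusted p = 0.00416), with Deficient ZT05 replicate 1 the only Deficient library inside the Control range. The protease inhibitor gene Timp1 fell from 9.07 to 16.4 CPM (median 11.6) to 1.98 to 4.96 CPM (median 2.72) (log2 fold change -2.08 ± 0.23 SE, adjusted p = 0.000254) and Timp3 rose from 142 to 349 CPM (median 202) to 575 to 793 CPM (median 611) (log2 fold change 1.5 ± 0.23 SE, adjusted p = 0.000493), both without overlap. Cholesterol synthesis genes fell in 7 of 20 and rose in none. Cyp51 was at 20.4 to 178 CPM (median 51.7) and 17.7 to 30.1 CPM (median 24) (log2 fold change -1.31 ± 0.30 SE, adjusted p = 0.00409).

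Collection time gave no calls in edgeR. In edgeR 0 genes passed for ZT17 minus ZT05 in Control uteri (1243 or 7.01% at an unadjusted p under 0.05, and 43 or 0.242% by DESeq2). For Deficient uteri 0 passed (1870 or 10.5%, and 234 or 1.32%), and for the difference of the response between times 0 passed (1467 or 8.27%, and 34 or 0.192%). The response itself was called for 3688 genes at ZT05 (20.8%, and 27.0% by DESeq2) and 5535 at ZT17 (31.2%, and 36.8% by DESeq2), counts that do not show that it differed. The ZT05 count was 509, 752, 2115 and 2195 without Deficient ZT05 replicate 2, Deficient ZT05 replicate 3, Control ZT05 replicate 3 and Control ZT05 replicate 1, and the ZT17 count was 2954 without Deficient ZT17 replicate 3 and 2442 without the pair high in squamous markers. Within Control the times did not overlap for 1542 genes (8.7%), within Deficient for 4421 (24.9%), and for 156 (0.88%) they were apart in both arms with opposite signs. With 3 libraries at each time, such gaps also arise without a time effect, and their chance share was not tested. Each edgeR test used a spread shared by both arms, though Control uteri varied more (median standard deviation of log2 CPM 0.408 against 0.260 in Deficient uteri).

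**Figure D4:**
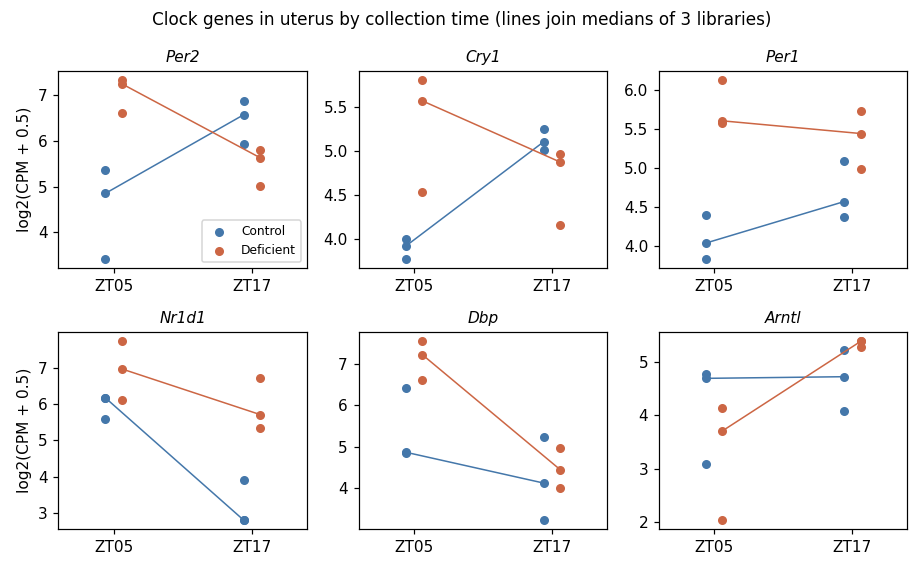
Levels, as log2(CPM + 0.5), of 6 clock genes in each uterus library by collection time, with colour for treatment and lines that join the medians of 3 libraries. Per2 is higher at ZT17 than at ZT05 in Control and lower at ZT17 in Deficient uteri.

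The molecular clock is a feedback loop in which CLOCK and ARNTL drive the Per and Cry genes, whose products shut them off, while Nr1d1 and Dbp are further targets. Of 20 clock genes, 12 rose and 2 fell over both times, with a median log2 fold change of 0.91. The values at each time are shown in the plot of clock genes, and no clock gene passed edgeR's test for a response that differs between times, while 3 of 20 passed by DESeq2. Per2 and Cry1 are described after their values were seen. In Control uteri Per2 was at 28.4, 40.7 and 10.1 CPM at ZT05 and 60.6, 116 and 94.6 CPM at ZT17. In Deficient uteri it was at 97.5, 161 and 151 CPM at ZT05 and 49.0, 31.9 and 55.1 CPM at ZT17. The times did not overlap in either arm, and their order was opposite. The difference of the response between times was -3.37 ± 0.61 SE in edgeR (adjusted p = 0.540) and -3.39 in DESeq2 (adjusted p = 0.000741). Cry1 had the same order, at 15.4, 14.6 and 13.1 then 34.0, 31.7 and 37.7 CPM in Control and 22.8, 55.7 and 47.1 then 28.8, 17.4 and 30.7 CPM in Deficient uteri, though the Deficient times overlapped. DESeq2 gave an adjusted p of 0.0247 for its difference of the response between times, and edgeR 0.540.

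Nr1d1, which represses Arntl, was at 71.6, 71.8 and 47.8 CPM at ZT05 and 14.4, 6.43 and 6.48 CPM at ZT17 in Control uteri. In Deficient uteri it was at 69.3, 213 and 125 CPM and then 51.9, 105 and 40.2 CPM, so the low ZT17 level of Control mice was seen in none of them. By DESeq2 the Control times differed (adjusted p = 5.09e-05). Over both times Nr1d1 rose (log2 fold change 1.96 ± 0.33 SE, adjusted p = 0.000878). Dbp, an output of the clock, fell from 98.2, 188 and 149 CPM at ZT05 to 15.5, 30.9 and 21.3 CPM at ZT17 in Deficient uteri by DESeq2 (adjusted p = 0.000358). In Control uteri it was at 28.1, 85.3 and 28.7 and then 37.5, 16.9 and 8.83 CPM. The output factor gene Hlf rose from 1.95 to 17.3 CPM (median 8.48) to 17.7 to 105 CPM (median 28.6) (log2 fold change 2.26 ± 0.47 SE, adjusted p = 0.00280), and Usp2 from 6.72 to 21.6 CPM (median 8.44) to 29.8 to 66.2 CPM (median 40.7) (log2 fold change 1.97 ± 0.30 SE, adjusted p = 0.000493). Bhlhe40, a repressor of the loop that also answers to other signals, fell from 141 to 526 CPM (median 388) to 46.1 to 214 CPM (median 92.6) (log2 fold change -1.86 ± 0.29 SE, adjusted p = 0.000592). With 2 collection times, a shift of phase and a change of level cannot be told apart.

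Glucocorticoid-responsive genes went both ways: 7 of 18 rose and 7 fell, with a median log2 fold change of -0.01. Zbtb16 rose most, from 1.37 to 4.59 CPM (median 3.73) to 15.1 to 32.8 CPM (median 22.1) (log2 fold change 2.78 ± 0.27 SE, adjusted p = 0.000171), and Per1 from 13.8 to 33.6 CPM (median 20.4) to 31.2 to 69.6 CPM (median 47.8) (log2 fold change 1.22 ± 0.19 SE, adjusted p = 0.000537). Ddit4, an inhibitor of mTOR signalling, fell from 33.2 to 179.9 CPM (median 88.2) to 16.7 to 59.2 CPM (median 21.3) (log2 fold change -1.66 ± 0.43 SE, adjusted p = 0.00841). Fkbp5, a feedback inhibitor of the receptor, was at 8.02 to 19.1 CPM (median 12.2) and 7.90 to 19.8 CPM (median 11.5) (log2 fold change -0.01 ± 0.22 SE, adjusted p = 0.980).

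The same 12 females gave lung libraries, so the response of the uterus could be set against that of an organ with its own epithelium and leukocytes, within animals. The uterine response was higher in 2648 genes (13.6%) and lower in 3143 (16.1%) of 19526 tested in the joint fit. Oestrogen-induced genes had a lower response in the uterus in 16 of 22, interferon effectors in 34 of 43, MHC class I genes in 11 of 12, endoplasmic reticulum chaperones in 17 of 23 and secretory pathway genes in 21 of 36. In lung alone, 8 of the 43 effectors fell and the median was -0.25. Shares of all genes that rose or fell in a fit of another organ alone are not reported here. Counts from such fits are therefore given without a background. Isg15 had a log2 fold change of -0.58 in lung, and the difference, uterus minus lung, was -3.16 ± 0.50 SE (adjusted p = 0.000833). For Hspa5 the lung value was -0.42 and the difference -1.24 ± 0.23 (adjusted p = 0.00190).

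**Figure D5:**
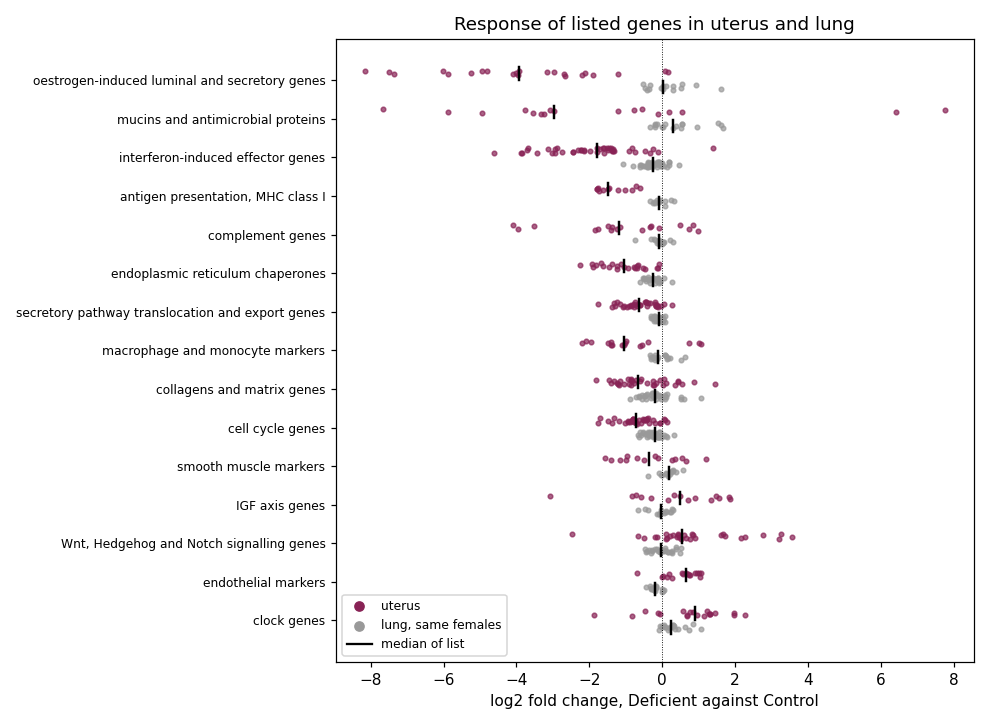
Log2 fold changes (Deficient against Control) of the members of 15 gene lists in the uterus and in the lung of the same 12 females, each organ from its own fit, with 1 point per gene and a bar at the list's median. The oestrogen-induced, interferon effector and endoplasmic reticulum medians (-3.94, -1.80 and -1.06 in the uterus) lie lower in the uterus than in the lung.

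Groups that were higher in the uterus than in the lung were endothelial genes (11 of 17 with a higher response, 0 lower), Wnt, Hedgehog and Notch genes (13 of 31, 1 lower), IGF axis genes (9 of 16, 2 lower) and clock genes (9 of 20, 2 lower). The joint fits with another organ were not run with the length trend removed, so the part of length in these differences was not tested. Ptch1 had -0.05 in lung and a difference of 2.19 ± 0.24 (adjusted p = 0.000163). Neutrophil markers moved apart: in lung 3 of 10 rose with a median of 1.11, and the response was lower in the uterus in 6 of 12. Glucocorticoid-responsive genes rose in lung in 9 of 18 and fell in none, and 8 had a lower response in the uterus. Fkbp5 showed this, at 1.45 in lung and with a difference of -1.4 ± 0.18 (adjusted p = 0.000330). Cell cycle genes differed between the organs in 0 of 39 cases. Against the libraries labelled Ovary, the uterine response was higher in 2415 genes (12.2%) and lower in 2626 (13.3%) of 19772. Only 3 Control and 1 Deficient of those libraries held at least 100 CPM of Cyp11a1. In their response, treatment and tissue content therefore cannot be told apart. Interferon effectors had a lower response in the uterus than in these libraries in 31 of 43, and MHC class I genes in 11 of 12. Endoplasmic reticulum chaperones did so in 8 of 23, and 2 had a higher response. In the labelled Ovary libraries alone, 18 of the 23 chaperones fell, with a median of -0.91. Collagen and matrix genes fell there in 22 of 34, and 11 had a higher response in the uterus and 0 a lower one. Over the 4 animals (3 Control, 1 Deficient) whose library held at least 100 CPM of Cyp11a1, 0 genes passed in edgeR (1121 at an unadjusted p under 0.05, and 155 by DESeq2).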

How the data were processed

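Poly(A) RNA was measured in 12 uterus libraries, with total RNA extracted by TRIzol and 500 ng used for a stranded kit, per the labels. The deposited table holds whole-number counts for 55487 genes, not normalized by the authors, and was used without rescaling. A second deposited table, of normalized counts, was not used here. The submitters' processing notes list FastQC 0.11.9, cutadapt 4.1, STAR 2.7.10a, DESeq2 1.34.0 and the builds GRCm38 and mm10. The counting tool and annotation are not given in the sources used here.

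Columns were joined to samples by the names in the labels, with 0 columns left over, and 0 pairs of libraries held identical counts. edgeR 4.0.16 in R 4.3.3 fitted 1 coefficient per group of treatment and time (minimum count 10, minimum total 15, TMM scaling, quasi-likelihood F tests, Benjamini-Hochberg adjustment over all genes tested, threshold 0.05). The response is Deficient minus Control, averaged over both times. Log2 fold changes carry standard errors (SE), computed as the size of the change divided by the square root of its F statistic. The comparison with lung, and with the libraries labelled Ovary, used a joint fit with the animal as a block. Scripts were tested on simulated data. Library totals between 13938546 and 26939465 counts limit precision for genes of a few CPM.

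The 46 gene lists and the genes described were chosen with earlier results of these data known, so list counts are descriptions and not independent evidence. The lists hold 839 entries of 781 distinct genes, so some genes count in more than 1 list. Named genes are the 10 largest rises and 10 largest falls with a mean of at least 8 CPM, up to 4 called members of each list with the largest change and those going against it, a panel of known genes, and the 4 largest differences per direction from lung and from the libraries labelled Ovary. The text names part of them. A few genes chosen in this way are not reported here. Alternatives were DESeq2 size factors, DESeq2 1.42.0, no filter, a stricter filter (5 CPM in 3 libraries), an additive model, a replicate block, each time alone and each library left out. Fits without the pair of libraries highest in squamous markers, without the pair nearest the other arm, over 4 animals for the labelled Ovary, and with a length trend removed were added after the data were seen. Replicate numbers are shared between groups but were not taken to pair animals. Exon lengths came from GENCODE M21 and promoters from RefSeq, both on GRCm38.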

Additional observations from a re-analysis of the deposited data

Results flagged for a closer look

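A library stood apart from the other 5 of its arm in 7 of 80 groups of 6 examined (8.75%), by a gap to its neighbour, as a share of the arm's range, above Dixon's limit for 6 values. Chance alone gives about 1 in 20 for independent groups of normal values, and these groups share the same libraries. In Control uteri, ZT17 replicate 2 was the highest for Cxcl15 (0.826 of the range) and the lowest for C3 (0.627), and ZT17 replicate 1 was the lowest for the oestrogen receptor beta gene Esr2 (0.726). In Deficient uteri, ZT05 replicate 1 was the lowest on the first principal component (0.665) and for Cxcl15 (0.676), and the highest for Irf7 (0.658) and Col1a1 (0.786). In 6 of the 7 cases the library was one of the pair nearest to the other treatment. That pair was itself picked on the first principal component and the changed genes, so this overlap is not independent evidence.

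Responses that differed most between the uterus and the lung of the same females were lower in the uterus for Sprr2b (-11.47 on the log2 scale), Sprr2d (-10.24), Krt84 (-9.81) and Dmbt1 (-9.50), and higher for Slc5a11 (8.08), Bpifb5 (7.57), Grin2b (7.17) and Wif1 (7.01). Against the libraries labelled Ovary, the response of the uterus was lower for Aoc1 (-8.34), Aqp4 (-6.15), Ltf (-6.10) and Lcn2 (-6.06), and higher for Grin2b (8.19), Cxcl15 (7.92), Bpifb5 (7.12) and Slc5a11 (6.16). The labelled Ovary libraries with ovarian Cyp11a1 were 3 Control and 1 Deficient, so treatment and tissue content cannot be told apart there. Where a gene was near 0 in an arm or in the other organ, the fitted size depends on the model's prior count.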

How the results depend on the processing

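Numbers of genes that rose and fell in the uterus (3766 and 4221) were 3836 and 4142 with DESeq2's size factors, 3757 and 4040 without a filter, 3066 and 3348 with the stricter filter, 4139 and 4424 by DESeq2 and 3669 and 3960 in the additive model. They were 2993 and 3433 without the pair high in squamous markers. Leaving out 1 library gave 3091 to 4009 and 3464 to 4178. With fewer libraries, 918 rose and 1359 fell at ZT05 alone and 2498 and 2668 at ZT17 alone. Calls at ZT05 ran from 509 to 4010 and at ZT17 from 2954 to 6379 when a library was left out, and the ZT17 calls numbered 2442 without the squamous pair. Time differences depended on the tool: 1 gene for the difference of the response between times, 7 within Control and 15 within Deficient passed without a filter, and 34, 43 and 234 by DESeq2. Leaving out a library gave 0 to 1 within Control and 0 to 0 for the other time contrasts.

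With the replicate number as a block (replicate block), 3686 rose, 4114 fell, 3478 were called at ZT05 and 5277 at ZT17, and 0 for each time contrast. Same-numbered libraries had a mean residual correlation of 0.0755 (-0.305 to 0.334 over 18 pairs), against -0.0381 for libraries with different numbers. Of the 12 libraries, 8 correlated best with their own number. The main fit held no term for the replicate number, and whether same-numbered libraries share a source of variation was not tested.

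Single genes were compared across the alternatives other than each time alone. Of 2807 such values of 134 genes, 2743 kept direction and call, 27 lost a call, 14 gained one and 23 changed sign. Sign changes were limited to Esr1, Mki67, Fkbp5 and Arntl, none of which passed the test over all 12 libraries as deposited. Without the squamous pair Esr1 was -0.061 and Mki67 -0.12, and with the length trend removed Esr1 was -0.36 and Mki67 -0.20. Fkbp5 was 0.0034 with DESeq2's size factors, 0.044 with the stricter filter, 0.0039 by DESeq2, 0.0033 in the additive model and 0.083 without the pair nearest the other arm, where Arntl was 0.095. Leaving out a library gave -0.051 to 0.17 for Esr1, -0.18 to 0.60 for Mki67, -0.18 to 0.14 for Fkbp5 and -0.35 to 0.10 for Arntl. Of 1840 counts of list members, 1712 stayed within 1.5 times. These counts hold neither the fits of each time alone nor the fit without a filter. The uterus minus labelled Ovary response gave 0 and 0 genes over the 4 animals with ovarian Cyp11a1 (3 against 1). The cause of these shifts was not tested.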

Other observations

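Lists not described above gave these counts in the uterus. Among matrix metalloproteinases and their inhibitors 5 of 16 fell and 2 rose. The falls numbered 3 without Control ZT17 replicate 2, Deficient ZT05 replicate 1 or 3, Deficient ZT17 replicate 1 or 3, or the pair nearest the other arm, where 1 rose. Among D cyclins and CDK inhibitors 4 of 10 fell and 0 rose, and 1 rose without Control ZT05 replicate 1 or 3, Control ZT17 replicate 2 or Deficient ZT05 replicate 1. Fatty acid synthesis genes rose in 2 and fell in 3 of 14, and rose in 4 without Control ZT17 replicate 3. Adipocyte markers fell in 2 of 11, and in 0 without the pair high in squamous markers. B and plasma cell markers fell in 1 of 5, and in 2 without Control ZT17 replicate 3 or Deficient ZT05 replicate 1, and 1 rose without Deficient ZT17 replicate 3. Erythrocyte genes fell in 3 of 4. Mast cell markers rose in 2 of 10 and oviduct and ciliated cell markers in 3 of 7. Ovary markers passed in 0 of 5 in edgeR. The 2 of 12 squamous markers that fell numbered 0 without Control ZT05 replicate 3, Control ZT17 replicate 1, Deficient ZT05 replicate 3 or Deficient ZT17 replicate 2, 1 without Deficient ZT05 replicate 2 or Deficient ZT17 replicate 3, 4 without Deficient ZT17 replicate 1, and 5 with the replicate block or without the pair nearest the other arm. Skeletal muscle markers rose in 1 and fell in 2 of 6, and 1 fell without Deficient ZT05 replicate 3 or Deficient ZT17 replicate 2. Of the markers that define the uterus, 5 of 12 rose and 0 fell.

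Across genes, Spearman's rho between merged exon length and the log2 fold change was 0.33 in the uterus (14821 protein-coding genes), 0.118 in the lung and 0.0682 in the libraries labelled Ovary of the same females, a description over genes that share each library's depth and are not independent replicates.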
